A study of Homo sapiens with 16 samples.

Results

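Proteins that enter the secretory pathway fold in the endoplasmic reticulum (ER), and cells that hold more unfolded protein there than they can handle switch on the unfolded protein response. Its sensors are the kinase and nuclease IRE1, the transcription factor precursor ATF6 and the kinase PERK. IRE1 splices the mRNA of XBP1, ATF6 is cut in the Golgi by proteases, and both then raise the transcription of ER chaperones and of the machinery that removes misfolded proteins, whereas PERK lowers translation in general and raises the translation of ATF4. The 10 genes described here were listed by symbol as members of this response, and each was found as 1 of the 58302 gene identifiers counted. They are ERN1, which encodes IRE1, the transcription factor XBP1, the chaperones HSPA5 (BiP), HSP90B1 (GRP94), HYOU1 and calreticulin (CALR), the cochaperones DNAJB9 and SDF2L1, the disulfide isomerase PDIA4, and HERPUD1, a membrane protein of ER-associated degradation.

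RNA came from HEK293, a long-established human line of embryonic kidney origin, and was sequenced from cytoplasmic lysates (Input) and from pooled heavy fractions of sucrose gradients (Polysome). Cells treated with 100 nM of an siRNA against Gemin5, an RNA-binding protein (siRNAG5), were compared with cells without that siRNA (Ctrl), in 4 libraries for each of the 4 groups. By their labels the Ctrl cells were untreated, but a control siRNA stands in the protocol, so the treatment of Ctrl is uncertain. No gene was deleted in any group. An siRNA lowers its target rather than removing it, and all libraries come from a single cell line with no ER stressor in the labels. Reads counted on genes ranged from 11145324 to 24511299 per library, and levels are given as CPM, counts per 1000000 counts of a library after TMM scaling over the 16 libraries.

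The GEMIN5 mRNA stood at 17.9 ± 2.32 CPM (SD, n = 4) in Input Ctrl and at 6.72 ± 0.529 CPM in Input siRNAG5 (log2 FC -1.40, edgeR adjusted p = 3.11e-10), and in Polysome it went from 7.44 ± 1.56 to 2.65 ± 0.495 CPM (log2 FC -1.44, adjusted p = 0.00477). All 7 HEK293 markers had reads in every group, with summed levels of 492 to 1682 CPM. The 16 genes of a liver list, which this line is not expected to express, summed to 132 and 152 CPM in Input Ctrl 4 and 3 and to 81.3 to 168 CPM in the 4 Polysome Ctrl libraries. They summed to 1.2 and 2.69 CPM in Input Ctrl 2 and 1, to 1.1 to 1.4 CPM in Input siRNAG5 and to 0.454 to 0.968 CPM in Polysome siRNAG5. In each siRNAG5 group 8 of the 16 had no read. The 8 differed in part between Input and Polysome, and APOB and SERPINA1 were among them in both. The liver reads thus went with Ctrl in Polysome, and their part in the members' values was not tested there. Reads aligned to several places, which the authors did not count, made up 4.88 to 6.04% of a library in Input and 21.2 to 42.4% in Polysome.

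The stretch upstream of these genes is shown because the response acts there. The ER stress response element (ERSE) is a CCAAT box and a CCACG motif separated by 9 bases, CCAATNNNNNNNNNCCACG, and the ERSE-II is the more compact ATTGGNCCACG. Both were searched on both strands of the 250 bases before the RefSeq start of each gene (GRCh38.p14), where 0.074% and 0.0513% of 35116 such windows held them. HSPA5, XBP1 and CALR held 1 ERSE each, HSP90B1 held 2, HERPUD1 and SDF2L1 held 1 ERSE-II each and HYOU1 held 2. The letters were not found in the windows of DNAJB9, PDIA4 and ERN1, of which that of ERN1 lies wholly inside the annotated gene, as do 172 of the 250 bases of that of PDIA4. TGACGTGG, the core of another element, to which XBP1 binds, was in 0.612% of windows, and of the 10 genes only HYOU1 had it, overlapping an ERSE-II. The lines below run 5′ to 3′ along the gene's strand and end before the first annotated base of the gene, with the matches in capitals. A match on the opposite strand appears as its reverse complement, beginning with CGTGG.
HSPA5 (chr9:125241383-125241593, minus strand): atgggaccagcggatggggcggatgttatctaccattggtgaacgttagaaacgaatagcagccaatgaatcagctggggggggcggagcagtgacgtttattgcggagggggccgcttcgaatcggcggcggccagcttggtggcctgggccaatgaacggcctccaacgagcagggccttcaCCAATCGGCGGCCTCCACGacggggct
XBP1 (chr22:28800598-28800819, minus strand): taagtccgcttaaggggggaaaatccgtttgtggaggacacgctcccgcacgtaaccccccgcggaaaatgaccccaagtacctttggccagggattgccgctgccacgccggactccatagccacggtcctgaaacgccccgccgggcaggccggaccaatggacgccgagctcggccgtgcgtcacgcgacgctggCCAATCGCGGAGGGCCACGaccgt
CALR (chr19:12938359-12938577, plus strand): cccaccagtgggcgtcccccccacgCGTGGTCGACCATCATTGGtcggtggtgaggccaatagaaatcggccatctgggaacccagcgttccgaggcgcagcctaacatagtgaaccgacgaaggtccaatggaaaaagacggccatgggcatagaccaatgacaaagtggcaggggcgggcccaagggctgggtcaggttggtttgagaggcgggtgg
HERPUD1 (chr16:56931892-56932141, plus strand): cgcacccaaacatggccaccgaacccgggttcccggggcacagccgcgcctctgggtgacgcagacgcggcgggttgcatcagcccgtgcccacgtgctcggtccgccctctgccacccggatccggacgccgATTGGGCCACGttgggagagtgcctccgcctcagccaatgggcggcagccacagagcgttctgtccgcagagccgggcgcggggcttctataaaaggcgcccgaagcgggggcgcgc
SDF2L1 (chr22:21642052-21642301, plus strand): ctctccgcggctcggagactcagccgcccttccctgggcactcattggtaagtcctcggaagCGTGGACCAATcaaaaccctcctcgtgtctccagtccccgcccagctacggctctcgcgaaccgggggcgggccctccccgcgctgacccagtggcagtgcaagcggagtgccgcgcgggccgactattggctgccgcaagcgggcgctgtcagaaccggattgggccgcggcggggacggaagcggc
HYOU1 (chr11:119057228-119057455, minus strand): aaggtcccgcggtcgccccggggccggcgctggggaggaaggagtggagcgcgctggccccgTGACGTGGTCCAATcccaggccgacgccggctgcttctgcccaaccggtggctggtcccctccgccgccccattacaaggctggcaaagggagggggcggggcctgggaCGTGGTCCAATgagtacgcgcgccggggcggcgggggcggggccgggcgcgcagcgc

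The ERSE of HSPA5 ended 48 bases before the RefSeq start, that of XBP1 34 bases and that of CALR 207 bases before it. The ERSE-II ended 107 bases before the start in HERPUD1 and 178 bases before it in SDF2L1. The window of HSP90B1 lies inside the annotated gene, so only its matches are given, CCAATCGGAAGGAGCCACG ending 176 and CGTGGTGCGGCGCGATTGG ending 71 bases before the start. These matches describe letters, not binding.

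Per kilobase of the canonical transcript, the members spanned a wide range. In Input Ctrl, CALR was the highest at 333 ± 18.7 CPM per kb and SDF2L1 followed at 223 ± 11.3 (SD, n = 4, as for all levels given as mean ± SD). HSP90B1 (112 ± 2.73), PDIA4 (94.4 ± 4.97), XBP1 (77 ± 5.78) and HSPA5 (65.7 ± 1.5) formed a middle group, and HERPUD1 stood at 24.8 ± 1.26. HYOU1 (3.02 ± 0.482), DNAJB9 (2.38 ± 0.253) and ERN1 (0.393 ± 0.0745) were far lower, and among neighbours in this order the libraries overlapped only for HYOU1 and DNAJB9. In Polysome Ctrl the order was SDF2L1 (188), CALR (174), XBP1 (102), PDIA4 (59.2), HSP90B1 (37.1), HERPUD1 (26.8), HSPA5 (26.5), HYOU1 (2.66), DNAJB9 (2.22) and ERN1 (0.368 CPM per kb). There SDF2L1 and CALR, PDIA4 and HSP90B1, HERPUD1 and HSPA5, and HYOU1 and DNAJB9 overlapped. Summed over the 10 genes, the level was 1840 to 1944 CPM in Input Ctrl, 1671 to 1799 in Input siRNAG5, 999.4 to 1213 in Polysome Ctrl and 795 to 1027 in Polysome siRNAG5. On this TMM scale the sum in Input was thus lower in every siRNAG5 library than in every Ctrl library, and CALR alone supplied the largest part of it. Scaling by total counts, described below, moved the median of all genes by 0.11 for silencing in Input. The separation of the sums is therefore stated for the TMM scale only.

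**Figure D1:**
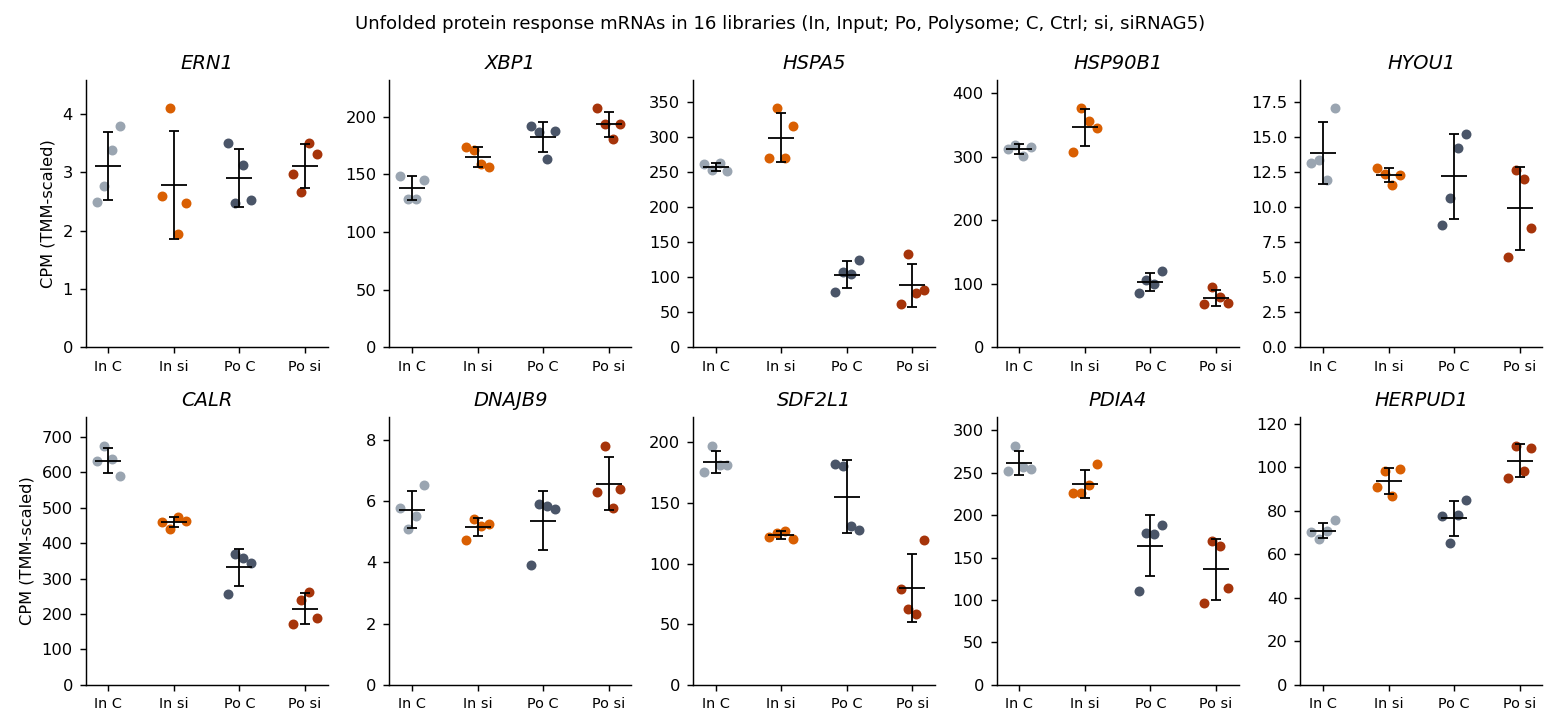
Level of each of the 10 mRNAs (CPM, linear axis from 0) in Input Ctrl, Input siRNAG5, Polysome Ctrl and Polysome siRNAG5; points are libraries, and the bar with whiskers is the mean ± SD of 4. HERPUD1 is higher in siRNAG5 in both fractions, CALR is lower in all 4 siRNAG5 libraries of Input, and HSPA5 and HSP90B1 are far lower in Polysome than in Input.

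The question of the siRNAG5 against Ctrl comparison is which mRNAs change in level or in polysomes when Gemin5 is reduced. In Input the 10 genes did not move together. HERPUD1, XBP1, HSPA5 and HSP90B1 rose, SDF2L1 and CALR fell, and the other 4 passed in neither direction. Rose and fell mean an adjusted p under 0.05 (edgeR's quasi-likelihood test, Benjamini-Hochberg over 14134 genes), and called adds a log2 FC beyond 0.5. Of all genes tested in Input, 17.9% rose and 19.1% fell. Only SDF2L1 was called, in the lower direction, as were 6.02% of all genes, and no member was called higher, against 10.5% of all genes. The median log2 FC of the members was -0.13, that of all genes 0.04. All siRNAG5 libraries lay above all Ctrl libraries for 3 members and below for 2, against 15.1% and 19.1% of all genes.

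HERPUD1, whose product helps to bring misfolded proteins to the ubiquitin ligase of the ER membrane, had 70.43, 66.83, 70.69 and 75.61 CPM in the Input Ctrl libraries. The 4 siRNAG5 libraries had 91.05, 98.17, 86.8 and 99.3 CPM, all above Ctrl. Its log2 FC of 0.42 (SE 0.07, adjusted p = 2.3e-05) was the largest increase among the 10 in Input. In bulk RNA, more mRNA per cell and more cells that express it cannot be told apart. XBP1, the transcription factor made active by the splicing of its own mRNA, stood at 148.3, 128.9, 129.1 and 145.3 CPM in Ctrl and at 173.7, 171.2, 158.9 and 156.2 CPM in siRNAG5. The groups were again separate (log2 FC 0.27, SE 0.07, adjusted p = 0.00159). Counts per gene do not tell the spliced from the unspliced XBP1 mRNA, so splicing was not measured here.

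HSPA5, the main Hsp70 chaperone of the ER lumen and the protein that holds the sensors inactive, had 262.4, 253.6, 263.1 and 251.9 CPM in Ctrl. The siRNAG5 values were 271.1, 341.5, 270.6 and 315.9 CPM, so replicates 2 and 4 stood well above Ctrl and replicates 1 and 3 just above it. The log2 FC was 0.23 (SE 0.07, adjusted p = 0.00989). HSP90B1, the Hsp90 of the ER, had 301.1 to 318.7 CPM in Ctrl and 307.1, 376.1, 356.1 and 345.3 CPM in siRNAG5. Replicate 1 of siRNAG5 lay inside the Ctrl range, and the log2 FC was 0.16 (SE 0.06, adjusted p = 0.0456).

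SDF2L1, a partner of ER Hsp40 cochaperones, was the only member called. Its Ctrl libraries had 175.7, 197.3, 181.7 and 181.3 CPM and its siRNAG5 libraries 122.1, 125, 127.2 and 120.3 CPM. The log2 FC was -0.56 (SE 0.06, adjusted p = 5.22e-08). CALR, the soluble lectin chaperone that folds glycoproteins and binds calcium, had 631.4, 675.3, 637.1 and 588.5 CPM in Ctrl and 459.6, 439.3, 474 and 463.7 CPM in siRNAG5. It was lower in all 4 siRNAG5 libraries (log2 FC -0.45, SE 0.06, adjusted p = 8.93e-07). Among the members with an ERSE upstream, HSPA5, XBP1 and HSP90B1 thus rose and CALR fell. Among those with an ERSE-II, HERPUD1 rose, SDF2L1 fell and HYOU1 passed in neither direction. The part of these elements was not tested.

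PDIA4, which forms and rearranges disulfide bonds, had 252.2 to 281.7 CPM in Ctrl and 225.7 to 260.8 CPM in siRNAG5 (log2 FC -0.13, adjusted p = 0.134). HYOU1, a large chaperone of the Hsp70 family that exchanges nucleotide on BiP, had 11.92 to 17.06 and 11.6 to 12.79 CPM (log2 FC -0.16, adjusted p = 0.276). DNAJB9, a BiP cochaperone, had 5.089 to 6.538 and 4.729 to 5.435 CPM (log2 FC -0.13, adjusted p = 0.498). For ERN1 the values were 2.487 to 3.79 and 1.942 to 4.093 CPM (log2 FC -0.17, SE 0.22, adjusted p = 0.576). The groups overlapped for all 4, and ERN1, DNAJB9 and HYOU1 rest on few reads, with ERN1 at 25 reads in its lowest library.

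Leaving out libraries in turn, the adjusted p of HERPUD1, XBP1, SDF2L1 and CALR stayed under 0.05 in all 8 fits. HSPA5 lost it without Input siRNAG5 2 (log2 FC 0.17, adjusted p = 0.0767), and HSP90B1 lost it in the fits without any of Ctrl 1, 3 or 4 or siRNAG5 2, 3 or 4 (adjusted p of 0.0732 to 0.175). PDIA4 passed without siRNAG5 4 (log2 FC -0.18, adjusted p = 0.0462). Without the 2 Input Ctrl libraries with liver reads, HERPUD1 (0.46, adjusted p = 0.000522) and XBP1 (0.26, adjusted p = 0.0277) rose and SDF2L1 (-0.59, adjusted p = 5.34e-06) and CALR (-0.50, adjusted p = 1.19e-05) were called lower. HSPA5 (0.23, adjusted p = 0.0711) and HSP90B1 (0.14, adjusted p = 0.235) then did not pass. With all 16 libraries in a single fit, HSPA5 (adjusted p = 0.448), XBP1 (0.0749) and HSP90B1 (0.445) did not pass either.

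In Polysome, where replicates differed more, HERPUD1 rose and SDF2L1 fell, and no other member passed. Of 14420 genes tested there, 4.02% rose and 4.09% fell. SDF2L1 was the only member called, in the lower direction (4% of all genes), and none was called higher (3.95%). The median log2 FC was -0.20 over the members and 0.03 over all genes. HERPUD1 was the only member with all siRNAG5 libraries above all Ctrl libraries (8.29% of all genes), and SDF2L1 the only member with all below (10%).

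HERPUD1 had 77.53, 65.31, 78.2 and 84.97 CPM in Polysome Ctrl and 95.26, 109.9, 98.1 and 109 CPM in Polysome siRNAG5. The increase was close to that in Input (log2 FC 0.47, SE 0.13, adjusted p = 0.0469). SDF2L1 had 182.6, 180.6, 130.8 and 127.6 CPM in Ctrl and 79.32, 62.82, 58.39 and 119.8 CPM in siRNAG5. Its highest siRNAG5 library, replicate 4, came close to the lowest Ctrl library (log2 FC -0.92, SE 0.23, adjusted p = 0.0362). Both calls lie near the threshold. HERPUD1 had an adjusted p of 0.0668 to 0.134 whichever of the 8 libraries was left out. SDF2L1 passed in 3 of 8 such fits, and lost the call without Ctrl 1 (adjusted p = 0.0683), Ctrl 2 (0.134), siRNAG5 1 (0.0804), siRNAG5 2 (0.0868) or siRNAG5 3 (0.0854), with a log2 FC of -1.17 to -0.78 over the 8.

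CALR had 255.6, 368.6, 357.6 and 343.9 CPM in Polysome Ctrl and 171.1, 240.7, 261.4 and 188.2 CPM in Polysome siRNAG5. Only the lowest Ctrl library lay within the siRNAG5 range, and the log2 FC of -0.58 (SE 0.18) had an adjusted p of 0.0691. HSP90B1 had 86.36, 106.9, 99.07 and 120.7 CPM in Ctrl and 68, 95.08, 79.87 and 69.96 CPM in siRNAG5 (log2 FC -0.35, adjusted p = 0.157). HSPA5 ranged from 78.69 to 125.1 CPM in Ctrl and from 62.21 to 133.1 CPM in siRNAG5, whose range enclosed that of Ctrl (log2 FC -0.18, adjusted p = 0.643). XBP1, at 163.6 to 191.9 and 180.6 to 207.2 CPM, gave a log2 FC of 0.13 (adjusted p = 0.565).

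DNAJB9 had 3.914 to 5.906 CPM in Polysome Ctrl and 5.773 to 7.814 in siRNAG5 (log2 FC 0.34, adjusted p = 0.26). ERN1 had 2.472 to 3.498 and 2.656 to 3.505 CPM (log2 FC 0.14, adjusted p = 0.697). PDIA4 (log2 FC -0.22, adjusted p = 0.54) and HYOU1 (log2 FC -0.25, adjusted p = 0.529) had overlapping groups. With 1 surrogate variable in the fit, CALR (-0.64, adjusted p = 7.22e-05), HSP90B1 (-0.40, 0.00233), PDIA4 (-0.32, 0.0199) and HYOU1 (-0.35, 0.0259) passed as lower too, making 5 that fell and 1 that rose. CALR also passed as lower with DESeq2 (-0.61, adjusted p = 0.0101). With all 16 libraries in a single fit, CALR (-0.62, 0.00361) and HSP90B1 (-0.40, 0.0246) passed as lower. HERPUD1 did not pass with RLE size factors (adjusted p = 0.0589) or without a filter (0.0572).

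**Figure D2:**
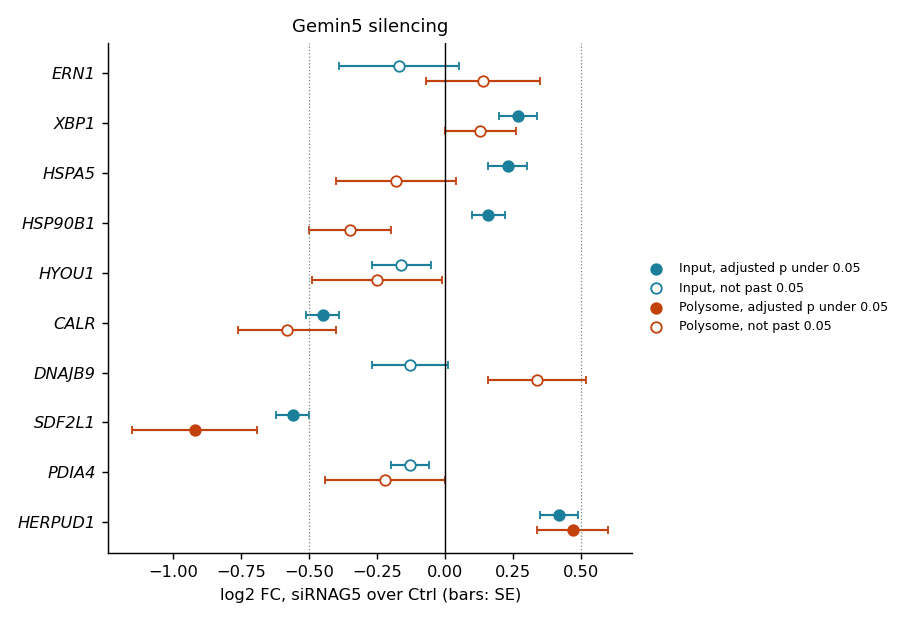
Log2 FC of siRNAG5 over Ctrl (horizontal axis, bars are SE) for the 10 mRNAs in Input and in Polysome; filled points have an adjusted p under 0.05 and dotted lines mark 0.5 in each direction. HERPUD1 lies to the right and SDF2L1 and CALR to the left in both fractions, whereas HSPA5 and HSP90B1 lie right of 0 in Input and left of 0 in Polysome.

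The Polysome libraries fell into sets that cut across the treatments, and some members followed them, in no larger share than genes in general. On the third principal component of 14958 genes (7.97% of the variance), Polysome Ctrl 1, siRNAG5 1 and siRNAG5 4 had scores above 20 (set A). Ctrl 3, Ctrl 4, siRNAG5 2 and siRNAG5 3 had scores under -10 (set B), and Ctrl 2 was in neither, at 3.485. PDIA4 had 96.23 to 114.5 CPM in set A and 164 to 188.8 CPM in set B, and HYOU1 6.456 to 8.744 and 12.04 to 15.26 CPM. These members were below in set A without overlap, as were 20.8% of all genes, and no member was above, against 13% of all genes. The mean of set A minus that of set B was also negative for HSPA5 and CALR (-0.55 each on the log2 scale) and HSP90B1 (-0.39), with overlap. It was 0.44 for SDF2L1, also with overlap.

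Within the sets, SDF2L1 was lower in siRNAG5 in both (log2 FC -0.87 in set A, which has a single Ctrl library, and -1.02 in set B), as was CALR (-0.51 and -0.41). HERPUD1 was higher in both (0.40 and 0.42). PDIA4 differed by -0.07 in each set. With the set as a term and Ctrl 2 left out, HERPUD1 (0.43, adjusted p = 0.000876) and DNAJB9 (0.44, 0.0406) rose. SDF2L1 (-0.95, 1.74e-06), CALR (-0.44, 0.000754) and HSP90B1 (-0.27, 0.0306) fell. The sets were drawn from the expression of all genes, the members among them, and the labels give no batch that they could stand for.

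**Figure D3:**
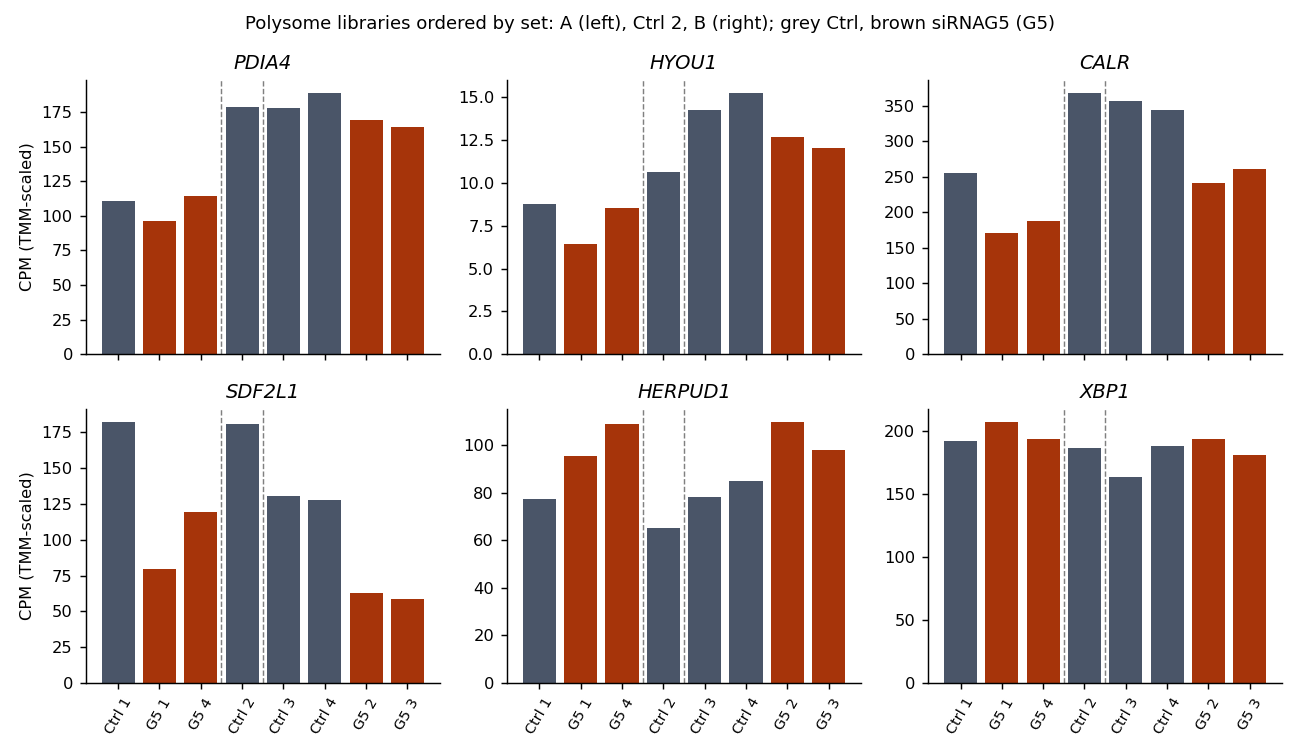
CPM (bars from 0) of 6 of the mRNAs in each Polysome library, ordered as set A, then Ctrl 2, then set B, with Ctrl in grey and siRNAG5 in brown. PDIA4 and HYOU1 step up from set A to set B in both treatments, whereas SDF2L1 and HERPUD1 separate by treatment within each set.

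Whether silencing acted differently in the 2 fractions was tested on the difference itself, the log2 FC in Polysome minus that in Input. No member passed with edgeR (0% of 14958 genes were called) and none with DESeq2. At an unadjusted p under 0.05 there was 1 member, against 7.28% of all genes. This was HSP90B1, with a difference of -0.55 (SE 0.17, adjusted p = 0.483), up in Input and at a lower value in Polysome. HSPA5, its partner in the ER lumen, had -0.44 (SE 0.25, adjusted p = 0.749). SDF2L1 had -0.38 (SE 0.25, adjusted p = 0.795) and DNAJB9 0.44 (SE 0.22, adjusted p = 0.708). HERPUD1 differed by 0.03 (SE 0.14, adjusted p = 0.98) and CALR by -0.16 (SE 0.20, adjusted p = 0.909). The SEs of 0.14 to 0.31 leave room for differences of the size seen in Input.

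Comparing Polysome with Input shows how far each mRNA stands in the polysomal pool relative to the lysate, on a scale where the typical gene is at 0. In Ctrl, HSP90B1 and HSPA5 stood lowest of the 10. HSP90B1 went from 311.8 ± 7.6 CPM in Input to 103.3 ± 14.4 CPM in Polysome (log2 FC -1.58, SE 0.13, adjusted p = 1.66e-07) and HSPA5 from 257.7 ± 5.86 to 104 ± 19.1 CPM (-1.30, SE 0.14, adjusted p = 2.05e-06). CALR, at 633.1 ± 35.6 and 331.4 ± 51.6 CPM, and PDIA4, at 261.2 ± 13.8 and 163.8 ± 35.9 CPM, were lower as well (-0.92, adjusted p = 5.74e-05, and -0.66, adjusted p = 0.00184). XBP1 was higher in Polysome, at 182.4 ± 12.8 against 137.9 ± 10.4 CPM (0.42, SE 0.12, adjusted p = 0.00748).

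Thus 4 members were lower and 1 was higher, where 23.2% of 13666 genes were lower and 24.3% higher. The same 4 were called lower, against 18.8% of all genes, and none was called higher, against 20.8%. SDF2L1 (-0.23, adjusted p = 0.197), HYOU1 (-0.17, 0.459), HERPUD1 (0.12, 0.404), DNAJB9 (-0.08, 0.757) and ERN1 (-0.08, 0.778) did not pass. Without Polysome Ctrl 1, SDF2L1 passed as lower (-0.32, adjusted p = 0.0344). Without the 2 Input Ctrl libraries with liver reads, the 4 called members kept their calls and XBP1 did not pass (0.39, adjusted p = 0.12).

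In siRNAG5 cells HSP90B1 (-2.06, SE 0.14, adjusted p = 8.69e-07), HSPA5 (-1.66, SE 0.21, 5.11e-05), CALR (-1.01, 0.000159), PDIA4 (-0.71, 0.00532) and SDF2L1 (-0.55, 0.0249) were lower in Polysome, all 5 of them called. XBP1 (0.31, 0.0198) and DNAJB9 (0.44, 0.0307) were higher. Over all 14795 genes, 25.2% were lower and 27% higher, and 21.2% were called lower and 23.9% called higher. Leaving out libraries in turn, SDF2L1 had an adjusted p of 0.0519 to 0.0608 without Input siRNAG5 1, 2 or 3 or Polysome siRNAG5 2 or 3. XBP1 had 0.0713 and 0.0694 without Input siRNAG5 3 and 4, and DNAJB9 had 0.054 to 0.104 without any Input siRNAG5 library or Polysome siRNAG5 2. Whether the treatments differ here is the test of the difference given above, which no member passed.

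**Figure D4:**
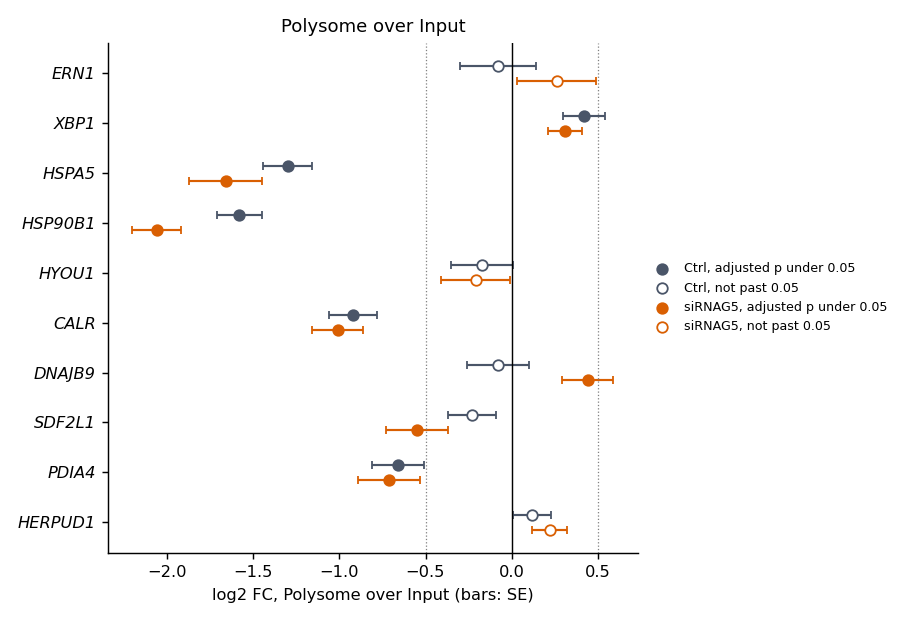
Log2 FC of Polysome over Input (horizontal axis, bars are SE) in Ctrl and in siRNAG5 cells for the 10 mRNAs; filled points have an adjusted p under 0.05. HSP90B1 and HSPA5 lie farthest left in both treatments, followed by CALR and PDIA4, and XBP1 lies right of 0 in both.

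These positions depend on the scale. TMM takes the typical gene as unchanged, and scaling by total counts instead moved the median of all genes by 0.54 in Ctrl and 0.74 in siRNAG5. HSP90B1 (-1.05 and -1.31) and HSPA5 (-0.76 and -0.91) remained lower in Polysome in both treatments on that scale. CALR was at -0.38 (adjusted p = 0.0183) in Ctrl and -0.25 (0.235) in siRNAG5, PDIA4 at -0.12 and 0.05, and SDF2L1 at 0.29 and 0.16, so the last changed direction in both treatments and PDIA4 in siRNAG5. On that scale 2 members were called lower and 2 higher in Ctrl, the latter XBP1 (0.95, adjusted p = 6e-06) and HERPUD1 (0.67, 0.000983). In siRNAG5 2 were called lower and 4 higher, the latter XBP1 (1.05, 3.93e-06), HERPUD1 (0.96, 2.76e-05), DNAJB9 (1.18, 0.000129) and ERN1 (adjusted p = 0.00318), where TMM called none higher in either treatment. For silencing, the same choice moved the median of all genes by 0.11 in Input and 0.35 in Polysome. HERPUD1 (0.52 in Input, adjusted p = 2.95e-06, and 0.81 in Polysome, 0.0122) and SDF2L1 (-0.45, 9.07e-07, and -0.58, 0.0405) kept their directions. HSPA5 (0.19), HSP90B1 (0.01), PDIA4 (0.15) and HYOU1 (0.11) were then above 0 in Polysome, and XBP1 rose there (0.48, adjusted p = 0.0201). In Input, HERPUD1 was then called higher and SDF2L1, short of 0.5, was not called.

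Other genes of the ER and of the response were listed by role, and their counts and medians in Input are given side by side. Among chaperones and folding enzymes, 12 of 24 fell and 2 rose (median log2 FC -0.15). Those called were lower, with the largest changes in TXNDC5 (-0.93, adjusted p = 0.0144), a disulfide isomerase, MANF (-0.68, 3.48e-09), a small ER protein that binds BiP, and PPIB (-0.62, 4.4e-09), a prolyl isomerase. TXNDC5 had only 364 reads over all libraries, and its groups overlapped (SE 0.30). Of 14 genes of the translocon, the signal peptidase and their partners, 10 fell and 1 rose (median -0.29), and SEC11C (-0.68, 8.17e-08) and SEC61B (-0.59, 3.36e-08) were called lower. Of 21 genes of ER-associated degradation, 9 fell and 2 rose (median -0.09), and SELENOS (-0.52, 1.29e-06) and AUP1 (-0.51, 1.67e-07) were called lower. HERPUD1, which acts in that same process, rose. Against these stand 19.1% and 17.9% of all genes that fell and rose.

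A list of sensors and of the proteases that process ATF6 also held CREB3, CREB3L2 and RTCB. Of its 8 tested genes, 3 rose, CREB3L2 among them, and 1, CREB3, fell. ATF6B (0.51, adjusted p = 3.2e-05), a relative of ATF6, was called higher. EIF2AK3, which encodes PERK and is in the same list, passed in neither direction (0.18, adjusted p = 0.447). The list for the arm of PERK and ATF4, which lacks EIF2AK3, moved in a single direction. Its genes were chosen with earlier results of these data known, so this common direction is a description only. All 10 of its tested genes rose in Input (median log2 FC 0.97), and 7 were called higher. The largest changes were in NUPR1 (2.25, adjusted p = 4.22e-11), a stress-induced nuclear protein, CHAC1 (1.85, 1.29e-11), which degrades glutathione, and DDIT3 (1.37, 5.56e-09), the transcription factor CHOP. ATF4 itself rose by less (0.28, adjusted p = 0.000596). ATF4 and its targets also answer to other kinases of eIF2, so the list is not particular to the ER. ERN2 with 26 reads and ASNS with 112 reads over all libraries did not pass the filter for this comparison.

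In Polysome, where 4.02% of all genes rose and 4.09% fell, 5 of the same 10 genes of the PERK and ATF4 arm rose and none fell (median 0.80), with CHAC1 (2.01, adjusted p = 0.000134), NUPR1 (2.12, 0.0014) and DDIT3 (1.16, 0.0242) again the largest. Of the 24 chaperones and folding enzymes, 3 fell and 1 rose (median -0.25). Those that fell were PPIB (-0.91, 0.0204), MANF (-0.83, 0.0417) and CRELD2 (-0.77, 0.0336), a secreted ER stress protein. ERO1B, an oxidase of disulfide isomerases, was the 1 that rose (0.64, 0.0323). SELENOS (-0.60, 0.0487) and UFD1 (-0.50, 0.0442) fell among the 21 genes of degradation. SEC11C (-0.93, 0.0344), a signal peptidase subunit, fell among the 14 of the translocon. None of the 8 tested genes of the sensor and protease list passed. For the difference between the fractions no gene of any list passed.

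**Figure D5:**
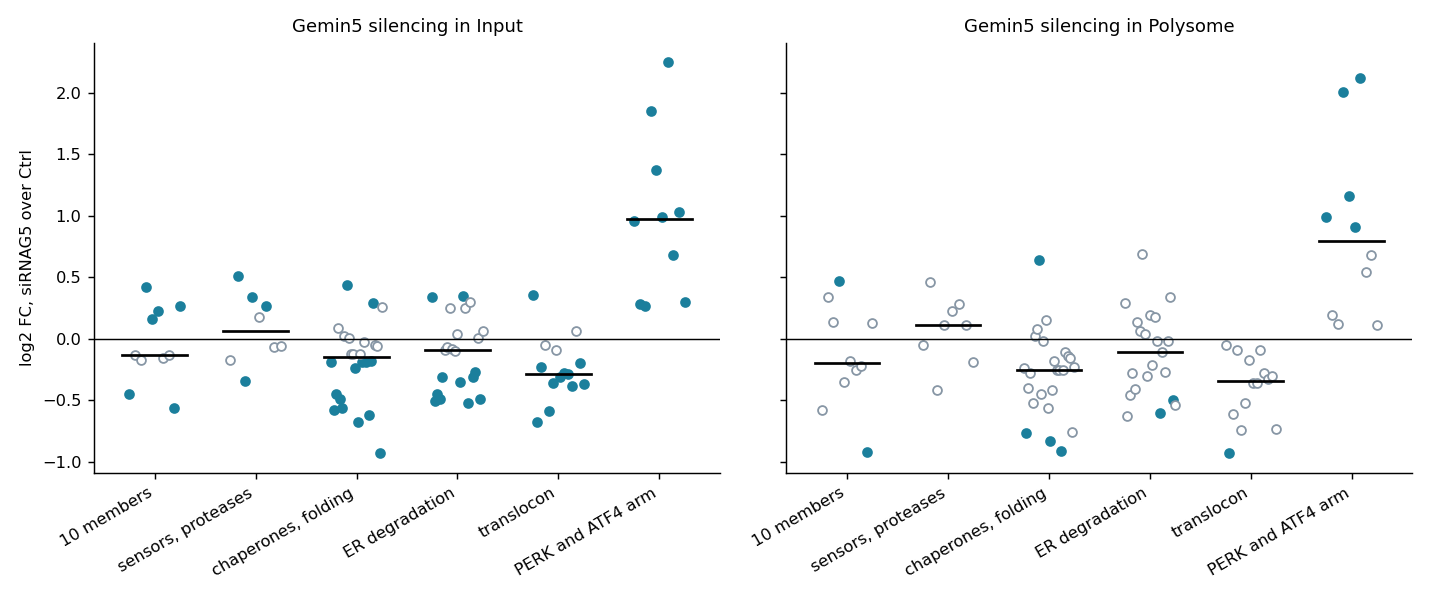
Log2 FC of siRNAG5 over Ctrl (vertical axis) for each tested gene of the 10 members and of the 5 lists of related genes, in Input (left) and Polysome (right); filled points have an adjusted p under 0.05 and black lines are list medians. The PERK and ATF4 arm lies above 0 throughout, whereas most chaperone and translocon genes lie below it.

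Between the fractions, more chaperones and folding enzymes were lower than higher in Polysome. The counts stand against 23.2% of all genes lower and 24.3% higher in Ctrl, and 25.2% and 27% in siRNAG5. In Ctrl 12 of 24 were lower and 2 higher in Polysome (median -0.28), and in siRNAG5 13 and 3 (median -0.45). The lowest called in Ctrl were ERP44 (-1.16, adjusted p = 1.23e-05) and PDIA3 (-1.02, 0.00012), both oxidoreductases of the ER, with TXNDC5 (-0.82, 0.0236, few reads and overlapping groups) next. In siRNAG5 they were DNAJC1 (-1.11, 2.35e-05), ERP29 (-1.07, 1.35e-05) and ERP44 (-1.02, 0.000175), of which DNAJC1 with DNAJC3 (1.03, 0.000571, called higher) are BiP cochaperones. Degradation genes split, with 9 lower and 6 higher of 21 in Ctrl and 9 and 7 in siRNAG5. OS9 (-1.49 in Ctrl and -1.61 in siRNAG5) and VCP (-1.16 and -1.71) stood lowest there and EDEM3 (1.17 and 1.66) highest. Of the 14 translocon genes, 5 were lower and 1 was higher in Ctrl, and 8 and 1 in siRNAG5, with SEC11A (-0.83 and -1.20) and SEC61A2 called lower in both. In the sensor and protease list, 3 of 8 were lower in each treatment, 2 were higher in Ctrl and 4 in siRNAG5. RTCB, the ligase that joins the ends of the cut XBP1 mRNA, was at -0.93 and -1.03. ATF6B was at -0.74 in both treatments, and CREB3L2 at 0.92 and 0.72, called higher in both. Of the PERK and ATF4 arm, 2 of 10 tested genes were higher and 1 lower in Ctrl, and 1 and 1 of 11 in siRNAG5. Those called were NUPR1 in Ctrl (-0.56, adjusted p = 0.0201) and DDIT3 in siRNAG5 (-0.58, 0.0237).

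The profiles of the members over the 16 libraries were compared. As a measure of likeness, log2 CPM was centred for each gene and the root mean square difference between genes was taken over the libraries, which share fraction and treatment. The closest of the 45 pairs of members were XBP1 and HERPUD1 (0.206), HSPA5 and HSP90B1 (0.218) and PDIA4 and CALR (0.232). DNAJB9 followed at 0.262 from HERPUD1 and 0.266 from XBP1, and the farthest pair was XBP1 and HSP90B1 (1.126). Among 14957 other genes the nearest to HSPA5 were UBA1 (0.163), COPB1 and VARS1 (0.176 each), and HSP90B1 ranked 16. The nearest to HERPUD1 were PNRC1 (0.099), BCL2L13 (0.107) and KHDRBS3 (0.117), and XBP1 ranked 198. The median over all genes was 0.875 from HSPA5 and 0.509 from HERPUD1.

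The members lie on 8 chromosomes. In the annotation whose coordinates are used here, the exons of 9 of them overlap no counted gene on the same strand. Of the exon bases of HSP90B1, 1% overlap MIR3652. The authors counted reads on another annotation, and overlaps with genes listed only there could not be checked. Reads that fell on several genes, which were not counted, made up 4.14 to 7.41% of a library. How far such reads lowered the level of a member, HYOU1 among them, was not tested. Pseudogenes with names like those of members, picked by symbol and not by sequence likeness, took few reads. HSP90B2P and HSP90B3P had 58 and 24 reads over the 16 libraries, against 51196 for HSP90B1, HSPA5P1 had 51 against 46583 for HSPA5, and XBP1P1 and CALR4P had 1 each. Reads that fit a gene and a copy of it equally well were left out by the counting. Levels of members, HSP90B1 and HSPA5 among them, may thus be understated by an amount that was not tested.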

How the data were processed

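Poly(A) RNA was made into stranded libraries by the authors, who mapped the reads with STAR 2.5.3a (GRCh38, Ensembl release 91) and assigned them to genes with QoRTs. They deposited whole-number counts without normalization for 58302 gene identifiers, of which 57532 were named by GENCODE v44, whose coordinates are used. The 5 rows that name no gene (reads with no gene, with several genes or with several places) were left out. Depth was 11145324 to 24511299 reads on genes per library, and low members are limited by it.

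Groups follow the labels. Each comparison was fitted across all genes with edgeR 4.0.16 (R 4.3.3), by its quasi-likelihood test after filterByExpr and TMM, with Benjamini-Hochberg adjustment, Polysome minus Input as an interaction over 16 libraries. The SE is the log2 FC divided by the root of F. Alternatives were DESeq2 1.42.0, RLE size factors, no filter, unadjusted p, all libraries in one fit, a replicate block, 1 surrogate variable (sva 3.50.0) and each library left out. Total counts, the fits without liver-read libraries and the library sets were chosen after seeing the data. The fits were tested on simulated counts. All 10 members are named. From other lists, up to 3 called genes with the largest log2 FC per comparison were named, and ATF4, ERO1B in Polysome and ERP44 in siRNAG5 are named beside them, chosen after their values were seen. EIF2AK3, CREB3 and CREB3L2 are named for Input too, where they were not called. The members and lists were chosen with earlier results of these data known. Upstream sequences are from RefSeq (GRCh38.p14), where all 10 matched by symbol.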

Additional observations from a re-analysis of the deposited data

Results flagged for a closer look

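In 3 of the 40 groups of 4 libraries looked at (10 genes in 4 groups), 1 library stood far from the other 3 by a gap rule that chance meets in about 5% of groups. DNAJB9 was at 3.914 CPM in Polysome Ctrl 1, where the other Polysome Ctrl libraries had 5.744 to 5.906 CPM. PDIA4 was at 110.6 CPM in the same library, where the others had 177.5 to 188.8 CPM. PDIA4 was also at 281.7 CPM in Input Ctrl 2, against 252.2 to 256.3 CPM in the other Input Ctrl libraries. Polysome Ctrl 1 belongs to set A, in which PDIA4 was low in both treatments.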

How the results depend on the processing

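Leaving out 1 library at a time, the number of members called in Polysome ranged from 0 to 1, and 5 of the 8 such fits gave 0. It was 2 with the unadjusted p, DESeq2, all 16 libraries in one fit, 1 surrogate variable or total counts, against 1 as reported. In Input, 2 members were called without the 2 libraries with liver reads, and for the difference between the fractions 1 with the unadjusted p. Total counts reversed SDF2L1 between the fractions (0.29 in Ctrl, 0.16 in siRNAG5) and PDIA4 in siRNAG5 (0.05). Over all genes, they gave 450 called lower and 2175 higher in Input, 207 and 2307 in Polysome, 758 and 6246 between the fractions in Ctrl and 797 and 8516 in siRNAG5, where TMM gave 851 and 1479, 577 and 569, 2566 and 2842, and 3132 and 3535. In Polysome, all genes called lower and higher numbered 1343 and 1599 with the unadjusted p, 1101 and 840 with DESeq2, 941 and 825 without a filter, 1520 and 1077 in one fit, 1427 and 1572 with 1 surrogate variable, 1299 and 1476 with the set term, 113 and 76 without Polysome Ctrl 2, and 245 to 321 and 260 to 289 without Polysome Ctrl 4 or Polysome siRNAG5 1, 2 or 3. For the difference, 11 and 18 were called by DESeq2, 29 and 28 without a filter, 9 and 0 without the libraries with liver reads and 517 and 272 with the unadjusted p, against 0 and 0. The causes were not tested.

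Same-numbered libraries did not all deviate together, with correlations from -0.543 to 0.492 over all genes. Both ends of that range lie between Ctrl and siRNAG5 in Polysome. Between Input and Polysome of a treatment they ran from -0.206 to 0.225. The authors took both RNAs from each lysate, but the labels do not tie equal numbers to a lysate. The numbers are therefore not taken as pairs, and a pairing by lysate remains possible. With the replicate block, the members called were 1 in Input, 1 in Polysome, 0 for the difference, 4 in Ctrl and 5 in siRNAG5, as reported. HSP90B1 in Input (0.0572), HERPUD1 in Polysome (0.0837) and DNAJB9 between the fractions in siRNAG5 (0.0569) then had adjusted p above 0.05. Of the other alternatives over single values and counts, 300 kept direction and side of the threshold, 3 reversed, 16 lost it, 15 gained it and 16 moved.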
